A study of Cricetulus griseus with 10 samples.

Results

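The genes described here are Aqp1 and 7 further regulators of cell volume: the kinases Wnk1, Stk39, Oxsr1 and Sgk1, the ion cotransporter Slc12a2, the anion channel subunit Lrrc8a and the transcription factor Nfat5. They were taken by name or Chinese hamster gene number from the deposited table, where each of the 8 matched 1 feature of 25156 (6 by gene number and 2 by symbol), and all 8 had enough reads to be tested. RNA was sequenced from CHO-K1 cells, an established Chinese hamster ovary line labelled wild type, during adaptation to suspension growth in the serum-free medium SFM4CHO. There were 2 libraries at each of passages 0, 2, 4, 6 and 10, abbreviated P0 to P10, and 10 in all. How the P0 cells were grown is not stated in the labels, nor is the origin of duplicates, and the p-values therefore refer to a spread between libraries that may be technical. In bulk RNA such as this, fewer cells of a kind and less RNA per cell cannot be told apart.

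Animal cells keep their volume by moving salt, small organic solutes and water across the membrane. Aqp1 encodes a water channel. WNK kinases sense chloride and osmotic stress and activate 2 closely related kinases, SPAK (encoded by Stk39) and OSR1 (Oxsr1), which in turn switch on the sodium-potassium-chloride cotransporter NKCC1 (Slc12a2) that loads shrunken cells with salt and switch off the potassium-chloride cotransporters. LRRC8A is the essential subunit of the channel that releases chloride and organic solutes from swollen cells. SGK1 is a kinase whose gene is induced by serum, glucocorticoids and cell shrinkage, and NFAT5 is the transcription factor that drives solute uptake genes under high salt.

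Values are normalised reads, read counts divided by a size factor per library. They are not corrected for gene length, so levels are compared within a gene and never between genes. The libraries held 8394219 to 16599495 assigned reads. Duplicates correlated at 0.988, 0.989 and 0.992 across genes at P0, P2 and P4, but at 0.956 at P6 and 0.930 at P10. P6 replicate 2 and P10 replicate 1 stood apart from the rest. The feature Dym held 1.15% and 1.41% of their normalised reads, against 4.32% in P6 replicate 1 and 8.53 to 13.5% in the other 7 libraries. The part of that difference in the results below was not tested, but the calls of the 8 genes and of the wider lists were also made without those 2 libraries. Tests were made with limma on log2(normalised reads + 1) over the 13521 features whose mean reached 10. All 10 libraries entered 1 fit with 1 pooled spread per gene, and p-values were adjusted by Benjamini-Hochberg over all of them, with 0.05 as the threshold. Fits that left out 1 library left a passage with 1 library. Without any 1 P0, P2 or P4 library, fewer features of all kinds were called in the 4 comparisons with P0. Without a P10 library more were called. Calls of single genes lost or gained in such fits are to be read beside that shift.

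**Figure D1:**
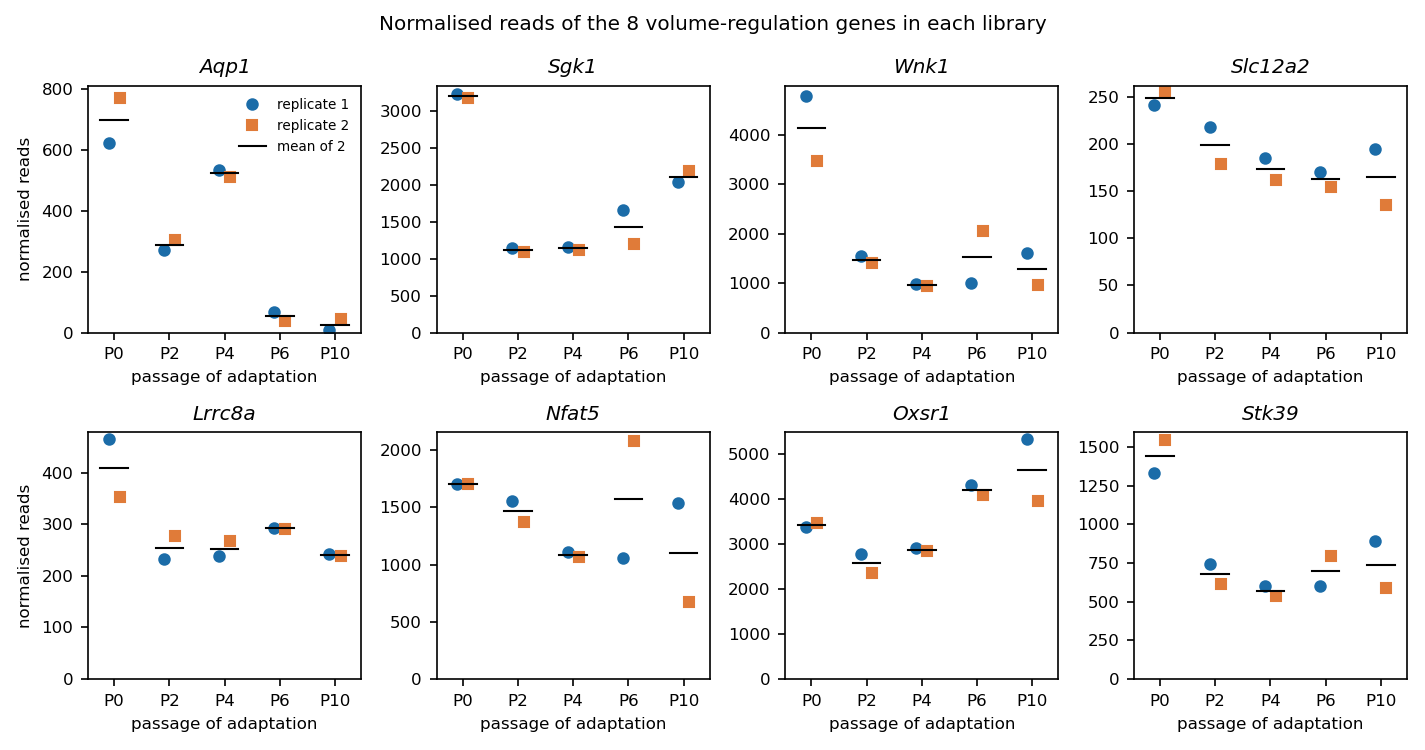
Normalised reads (vertical axes, each starting at 0) of the 8 genes in each library, by passage; circles are replicate 1, squares replicate 2 and bars the mean of the 2. Aqp1 stands at 8.44 to 68.9 at P6 and P10 and at 273 to 773 at the earlier passages, and only Oxsr1 is higher in both libraries of P6 and P10 than at P0.

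Aqp1 (gene number 100773231) had the largest difference of the 8 genes. It had 625 and 773 normalised reads in the P0 libraries, 273 and 304 in P2, 536 and 512 in P4, 68.9 and 39.3 in P6, and 8.44 and 44.5 in P10. The level was therefore lower at P2 than at P4, and by passage mean the order was P0, P4, P2, P6 and P10. Neighbours in that order did not overlap except P6 and P10, whose libraries interleaved. The lowest value, in P10 replicate 1, rested on 10 reads, with an exact 95% Poisson interval of 4.05 to 15.5 normalised reads, and P10 replicate 2 on 57 reads (33.7 to 57.6). These intervals cover counting error only. The 2 P10 libraries differed by more than that error, and both lay far below the P0 libraries.

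At P10, Aqp1 averaged 26.5 ± 25.5 normalised reads, against 699 ± 105 at P0 (SD, n = 2 each), a ratio of means of 0.0379. The log2 difference was -5.07 (SE 0.61), and Aqp1 fell by limma's test (adjusted p = 0.00183). It passed whichever of the 10 libraries was left out (highest adjusted p = 0.0266), but its size rested on which P10 library was kept: the log2 difference was -3.94 without P10 replicate 1 and -6.20 without P10 replicate 2. It missed the threshold when the spread came from the P0 and P10 libraries alone (0.0654). At P6 it averaged 54.1 ± 20.9, a log2 difference from P0 of -3.71 (SE 0.61, limma adjusted p = 0.00561), a call that was lost without P0 replicate 1 (0.0506). At P2 and P4 the log2 differences from P0 were -1.27 (adjusted p = 0.314) and -0.41 (adjusted p = 0.749), and neither passed. The P2 difference passed without P10 replicate 1 or 2, with its log2 value unchanged. Those fits left 1 library at P10 and called more features of all kinds at P2. The part of the gap between the P10 libraries of Aqp1 in this was not tested.

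Aqp1 was also the only one of the 8 genes with a called slope on passage number, -0.53 on the log2 scale per passage (SE 0.08, limma adjusted p = 0.00762), where 4.4% of tested features had a negative slope called, 6.12% a positive one and 10.5% either. The slope missed the threshold without P10 replicate 1 (-0.44, adjusted p = 0.0535). Of 2 comparisons added after the data were seen, P10 stood below P2 by a log2 difference of -3.80 (adjusted p = 0.0279) and below P4 by -4.66 (adjusted p = 0.0324). Without P10 replicate 1 these differences were -2.67 and -3.53, and without P10 replicate 2 they were -4.94 and -5.80. Aqp1 was again the only member called, where 0.636% of features were called lower, 0.621% higher and 1.26% either way against P2, and 0.17%, 0.0518% and 0.222% against P4. Against P2 the call was lost when any 1 library of the first 3 passages was left out (highest adjusted p = 0.301). Against P4 it was lost when any 1 of the P0 to P6 libraries was left out (0.412).

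Aqp1 was the only aquaporin that passed at any passage with all 10 libraries. Of the 12 aquaporin genes listed, 11 matched a feature and 3 were tested: Aqp1, Aqp3, which also passes glycerol, and the intracellular Aqp11. Aqp3 had 22.8 and 50.7 normalised reads at P10, against 35.7 and 44.6 at P0, and reached 96.0 and 87.4 at P4 (log2 difference from P0 1.18, adjusted p = 0.116). Aqp11 had 40.5 and 40.6 at P10, against 37.5 and 20.1 at P0 (log2 difference 0.54, adjusted p = 0.349). The P10 and P0 values of Aqp3 overlapped, and those of Aqp11 did not. With P6 replicate 2 and P10 replicate 1 left out, Aqp1 was the only aquaporin called lower at any passage. Calls of other aquaporins in that fit were all higher, at P2, P4 and P6, and none was made at P10. That fit left 1 library each at P6 and P10 and called a larger share of all features than the fit of all 10 libraries.

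The features whose pattern was most like that of Aqp1 were Acp5, C1rl, Psd, Igdcc4 and Nnmt, with Pearson r over the 10 libraries of 0.97, 0.97, 0.96, 0.96 and 0.96, the highest of 9225 features with a symbol and a mean of at least 50. Acp5, an acid phosphatase, had 138 and 216 normalised reads at P10, against 529.6 and 527 at P0. Nnmt, which methylates nicotinamide, had 46.4 and 95.2 at P10, against 205 and 213 at P0. Each of the 5 was lower in P10 replicate 1 than in P10 replicate 2, and lower in P6 replicate 2 than in P6 replicate 1, as Aqp1 was. P10 replicate 1 and P6 replicate 2 are the libraries that stood apart by Dym, and their part in the likeness was not tested. The 10 points include duplicates of a passage, so r is given as a description.

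**Figure D2:**
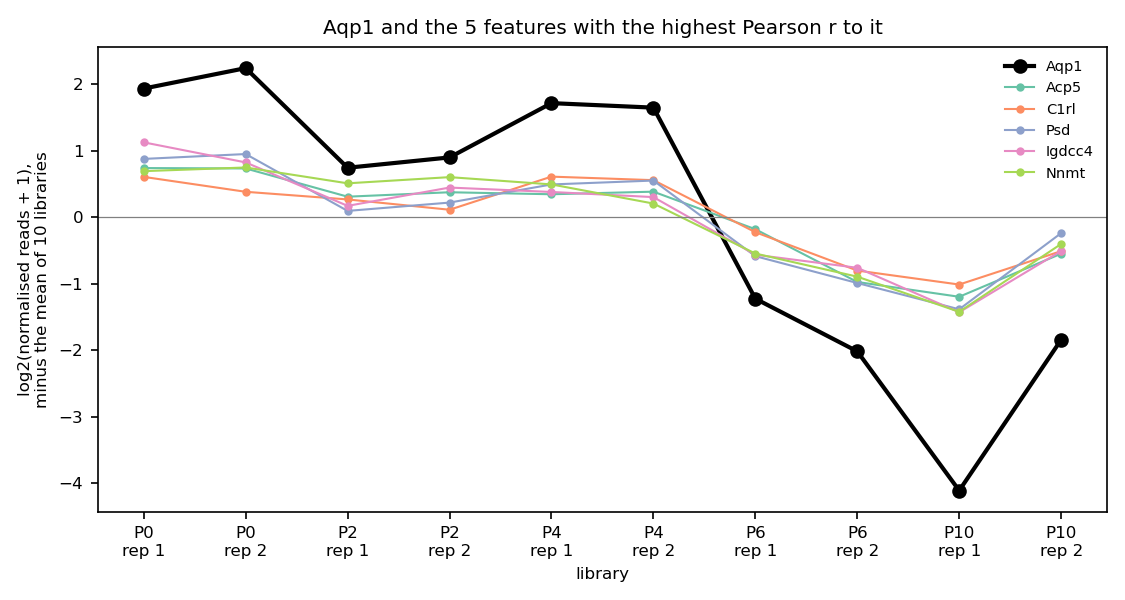
Log2(normalised reads + 1) minus its mean over the 10 libraries (vertical axis) by library, for Aqp1 (black) and the 5 features with the highest r to it. All 6 lines fall below 0 from P6 on and are lowest in P10 replicate 1, with the widest swing in Aqp1.

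Wnk1, the kinase at the head of the cascade, was at its highest level at P0. It had 4794 and 3461 normalised reads in the P0 libraries, 1553 and 1401 in P2, 974.6 and 939 in P4, 1003 and 2053 in P6, and 1618 and 970.04 in P10. No later library reached either P0 library. Among the later passages, both P4 libraries lay below those of P2 and P6, but P10 replicate 2 lay between the P4 libraries. The higher P6 and P10 values were those of P6 replicate 2 and P10 replicate 1, the libraries that stood apart by Dym. Wnk1 averaged 1294 ± 458 at P10, against 4127 ± 942 at P0 (SD, n = 2 each), a log2 difference of -1.70 (SE 0.35, limma adjusted p = 0.0146). It also fell at P4 (-2.09, adjusted p = 0.00948) and P6 (a ratio of means of 0.370, adjusted p = 0.0209). At P2 the log2 difference of -1.46 just missed the threshold (limma adjusted p = 0.0574). It passed without either P6 or either P10 library, in fits that called more features of all kinds.

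The calls of Wnk1 leaned on the P0 duplicates. Without P0 replicate 1 they were lost at P4 (adjusted p = 0.108), P6 (0.152) and P10 (0.130), and without P0 replicate 2 at P6 (0.0674) and P10 (0.0539). The P4 call was also lost without P4 replicate 1 or 2 (0.0894 and 0.0959) and the P6 call without P6 replicate 1 (0.0731). With the spread from the P0 and P10 libraries alone, the P10 call was lost as well (0.101).

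Stk39, which encodes SPAK, was called lower at all 4 later passages. It had 1333 and 1542 normalised reads in the P0 libraries, 745 and 616 in P2, 602 and 536 in P4, 599 and 795 in P6, and 891 and 585 in P10. Every later library lay below both P0 libraries. It averaged 738 ± 216 at P10, against 1437 ± 148 at P0 (SD, n = 2 each), a ratio of means of 0.514. The log2 differences from P0 were -1.08, -1.33, -1.05 and -0.99 at P2, P4, P6 and P10 (SE 0.24 each), with limma adjusted p-values of 0.0447, 0.0125, 0.0194 and 0.0259. All 4 calls were lost without P0 replicate 1 or 2 (highest adjusted p = 0.251). They were lost without either library of the compared passage at P2 (0.324) and P4 (0.130), without P6 replicate 1 at P6 (0.0728), and without P4 replicate 1 or 2 at P2 (0.102) and P10 (0.0549). The P10 call was lost with the spread of the compared passages alone (0.161). The P2 call was also lost in edgeR (0.0509), without a filter on low values (0.0593), with upper-quartile scaling (0.0570) and without the intensity trend (0.0729).

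Oxsr1, which encodes OSR1, was the only member with both libraries of a later passage above both P0 libraries. It had 3375 and 3474 normalised reads in the P0 libraries, 2783 and 2365 in P2, 2906 and 2842 in P4, 4311 and 4092 in P6, and 5326 and 3949 in P10. The P2 and P4 libraries all lay below P0 and the P6 and P10 libraries all above it. None of the differences passed: they were -0.42, -0.25, 0.29 and 0.42 on the log2 scale at P2, P4, P6 and P10 (SE 0.19 each, limma adjusted p = 0.293, 0.477, 0.282 and 0.166). At P10 it passed without P10 replicate 2 (0.64). P10 stood above P2 by 0.84 (limma adjusted p = 0.0777), which passed in DESeq2 on recovered reads (0.00437). It also passed without P10 replicate 2, where the difference was 1.05. Fits without P10 replicate 2 left 1 library at P10 and called many more features of all kinds.

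The paralogous kinases thus had different courses over the passages. The ratio of Oxsr1 to Stk39 reads within a library was 5.98 and 6.75 at P10, against 2.53 and 2.25 at P0. It was 3.74 and 3.84 at P2, 4.83 and 5.30 at P4, and 7.19 and 5.14 at P6, so that no later library overlapped P0. The ratio depends on the lengths of both genes, so only its change between libraries can be read, and it was not tested. Wnk1 and Stk39 had similar courses, with Pearson r of 0.95 over the 10 libraries, whereas r was 0.08 between Wnk1 and Oxsr1 and -0.80 between Aqp1 and Oxsr1. These values are descriptions over points that share passages. At P6 and P10, Wnk1 and Stk39 were both higher in P6 replicate 2 and P10 replicate 1 than in the duplicates of these. Those 2 libraries stood apart by Dym, and their part in r was not tested.

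**Figure D3:**
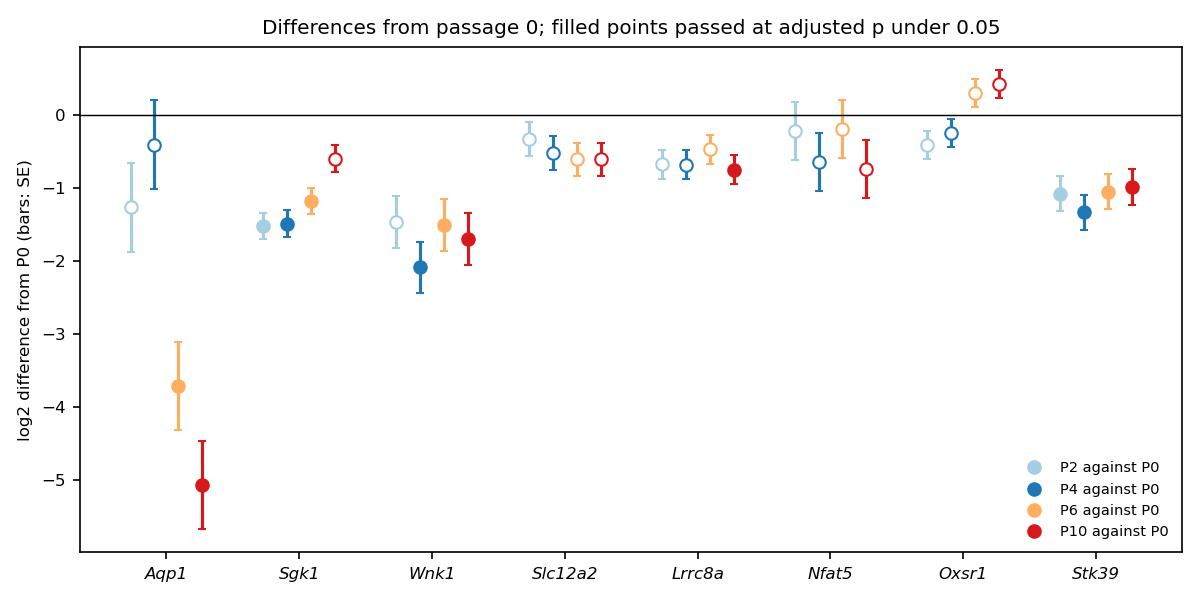
Log2 difference from P0 (vertical axis) of each of the 8 genes at P2, P4, P6 and P10, from the limma fit; bars are standard errors, and filled points passed at an adjusted p under 0.05. Aqp1 reaches -5.07 at P10, Wnk1 and Stk39 stay below 0 at all 4 passages, Sgk1 comes back towards P0, and Oxsr1 passes from below 0 to above it without a call.

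Slc12a2, the gene of NKCC1, had 242 and 256 normalised reads in the P0 libraries, 219 and 179 in P2, 185 and 162 in P4, 171 and 155 in P6, and 195 and 136 in P10. All later libraries were below both P0 libraries, and the 4 later passages overlapped each other except that P6 lay below P2. It averaged 165 ± 41.8 at P10, against 249 ± 9.66 at P0 (SD, n = 2 each). The log2 difference of -0.61 (SE 0.23) did not pass at P10 (limma adjusted p = 0.103) or at P6 (-0.61, 0.0904), and those at P2 and P4 were -0.33 and -0.52 (0.522 and 0.209). Without P10 replicate 1 the differences passed at P10 (-0.87) and P6 (-0.61), and without P10 replicate 2 at P6 (-0.61). These fits left 1 library at P10 and called more features of all kinds.

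Lrrc8a had 466 and 354 normalised reads in the P0 libraries, 232 and 277 in P2, 238 and 267 in P4, 293 and 291 in P6, and 243 and 238 in P10. It was lower in every later library than in either P0 library, and the later passages lay between 232 and 293. At P10 it averaged 241 ± 3.53, against 410 ± 79.5 at P0 (SD, n = 2 each). The log2 difference at P10 was -0.75 (SE 0.20, limma adjusted p = 0.0338), and it was -0.68, -0.68 and -0.47 at P2, P4 and P6, where it did not pass (0.103, 0.0656 and 0.118). The P10 call was lost without any 1 of the P0, P2 and P4 libraries (highest adjusted p = 0.241) and with the spread of the compared passages alone (0.216). At P2 and P4 Lrrc8a passed without P10 replicate 1 or 2, in fits that left 1 library at P10 and called more features of all kinds.

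The partners of LRRC8A in the channel, Lrrc8b to Lrrc8e, were all tested and none passed at any passage. Their log2 differences at P10 were -0.27, -0.45, -0.36 and -0.81 in that order (adjusted p = 0.324, 0.377, 0.253 and 0.186). Of the 11 tested genes for volume-regulated chloride, potassium and solute channels, none passed at P2 or P4. At P6, 1 rose and none fell. At P10, 1 fell, Lrrc8a itself, and none rose. Over all tested features, 10.5% were called higher at P6 and 8.25% lower at P10. The riser at P6 was Pacc1, the proton-activated chloride channel (0.64, adjusted p = 0.0331, highest adjusted p without 1 library 0.185). Kcnk5, a potassium channel of volume regulation, had 422 and 486 normalised reads at P2, against 247 and 211 at P0 (log2 difference 0.99, adjusted p = 0.0906). The median log2 difference of the 11 was -0.17 at P2 and -0.27 at P10.

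Sgk1 fell at P2 and was closer to its P0 level at P10. It had 3237 and 3176 normalised reads in the P0 libraries, 1147 and 1087 in P2, 1163 and 1120.1 in P4, 1666 and 1201 in P6, and 2044 and 2187 in P10. The order by passage mean was P0, P10, P6, P4 and P2, and only P4 and P2 overlapped. It averaged 1117 ± 41.9 at P2, against 3207 ± 42.9 at P0 (SD, n = 2 each), a log2 difference of -1.52 (SE 0.18, limma adjusted p = 0.00366). The differences at P4 and P6 were -1.49 (adjusted p = 0.00268) and -1.18 (0.00463). The P4 call held in all 10 fits that left out 1 library, the P2 call was lost without P0 replicate 1 or either P2 library (highest adjusted p = 0.0656), and the P6 call without P0 replicate 1 (0.0539).

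At P10 Sgk1 averaged 2116 ± 102, against 3207 ± 42.9 at P0, and the log2 difference of -0.60 (SE 0.18) missed the threshold (limma adjusted p = 0.0543). It passed in edgeR (0.0420) and DESeq2 (0.0157) on recovered reads and under TMM (0.0404) or upper-quartile scaling (0.0226), and without P6 replicate 1, P6 replicate 2 or P10 replicate 2 (0.0223 to 0.0342). P10 was higher than P2 by 0.92 (adjusted p = 0.0521) and than P4 by 0.89 (0.0691), in comparisons added after the data were seen. These did not pass in limma and passed in DESeq2 (0.000614 and 0.00134). Both passed without P10 replicate 2 (log2 differences 0.87 and 0.84), in fits that left 1 library at P10 and called many more features of all kinds. The first also passed without P6 replicate 1 or 2, where its log2 difference stayed at 0.92.

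Nfat5 differed widely between the duplicates of P6 and of P10. It had 1704 and 1702 normalised reads in the P0 libraries, 1555 and 1372 in P2, 1109 and 1064 in P4, 1058 and 2082 in P6, and 1533 and 674 in P10. The high values at P6 and P10 were those of P6 replicate 2 and P10 replicate 1. It averaged 1104 ± 607 at P10, against 1703 ± 1.54 at P0 (SD, n = 2 each). No comparison with P0 passed, with log2 differences of -0.22, -0.65, -0.20 and -0.74 at P2, P4, P6 and P10 (SE 0.39 each, limma adjusted p = 0.851, 0.364, 0.729 and 0.229). The P10 difference passed without P10 replicate 1 (-1.34, adjusted p = 0.0234), and the P6 difference was 0.29 without P6 replicate 1.

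Of the 8 genes, 2 were called lower at P2 (Sgk1 and Stk39), 3 at P4 (with Wnk1), 4 at P6 (with Aqp1) and 4 at P10 (Aqp1, Wnk1, Lrrc8a and Stk39), and none was called higher. Over all tested features, 2.07% were called lower at P2, 5.52% at P4, 10.5% at P6 and 8.25% at P10. The shares called higher were 2.08%, 3.72%, 10.5% and 8.77%, and those called either way 4.15%, 9.24%, 21% and 17%. The median log2 differences of the 8 genes were -0.88, -0.67, -0.83 and -0.75 in that order, beside medians over all features of 0.01, 0.03, -0.07 and 0.00. Both P2 libraries lay below both P0 libraries in 8 of 8 genes, where this held for 32.9% of features, and the same was true at P4 in 8 of 8 (34.6%). It was true in 6 of 8 at P6 (35.7%) and in 7 of 8 at P10 (26.0%), while Oxsr1 lay above P0 in both passages (32.0% and 28.3%). No gene lay above P0 in both libraries of P2 or of P4, as 34.2% and 37.8% of features did. The counts of genes that did not overlap with P0 were the same under TMM and upper-quartile scaling, whereas the counts of calls were 5 at P10 under both, with Sgk1 added, and 1 at P2 under upper-quartile scaling, with Stk39 lost. These comparisons share the P0 libraries. The 8 genes were also chosen with earlier results of these data known, so the contrast with all features is a description only. Without P6 replicate 2 and P10 replicate 1, the genes called were 6 lower at P2, 7 lower at P4, 6 lower and 1 higher (Oxsr1) at P6, and 7 lower at P10. That fit called 17.5, 21.3, 24.5 and 20.2% of all features lower at the 4 passages, 16.7, 21.8, 24.3 and 26% higher, and 34.1, 43.1, 48.8 and 46.3% either way.

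Between successive passages none of the 8 genes passed in limma, and no feature of the 13521 did, in P4 against P2, P6 against P4 or P10 against P6. At an unadjusted p under 0.05 there were 285, 3450 and 1273 features, and among them no member, 2 members (Aqp1 and Oxsr1) and 1 member (Sgk1). edgeR on recovered reads called no feature in any of these steps, and DESeq2 called 10, 512 and 80. The step from P4 to P6 held the largest difference of Aqp1, which had 68.9 and 39.3 normalised reads at P6, against 536 and 512 at P4. Its log2 difference of -3.31 (SE 0.61) had a limma adjusted p of 0.179 and a DESeq2 adjusted p of 2e-07. Aqp1 passed in this step without P10 replicate 1 or 2, as did Oxsr1 (log2 difference 0.55). Nfat5 passed in P10 against P6 without P10 replicate 1 (-1.14). These fits left 1 library at P10 and called many features of all kinds, where the fit of all libraries called none. The gained calls are therefore not particular to these genes.

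Among partners of the WNK kinases, 9 of 11 listed genes were tested and included Wnk1, Stk39 and Oxsr1. Of these 9, 1 fell at P2, 2 at P4, 4 at P6 and 3 at P10, and none rose. Over all tested features, 2.07, 5.52, 10.5 and 8.25% were called lower at those passages, and 2.08, 3.72, 10.5 and 8.77% higher. Counts of the other lists with all 10 libraries are to be read beside the same shares. Besides members, Klhl2, an adaptor that targets WNK kinases for degradation, fell at P6 (-0.80, adjusted p = 0.0120) and P10 (-0.74, adjusted p = 0.0161), both lost without P0 replicate 1 or 2 (highest adjusted p = 0.123). Wnk4 passed at P6 only (-1.53, adjusted p = 0.0266), with 27.4 and 16.9 normalised reads at P6, against 61.8 and 66.1 at P0. Its call was lost without any 1 of the P0, P2 and P4 libraries or P6 replicate 2 (highest adjusted p = 0.132). Cab39, which encodes the scaffold MO25 that stabilises active SPAK and OSR1, had 3524 and 1873 normalised reads at P10, against 1439 and 1389.8 at P0 (log2 difference 0.86, adjusted p = 0.0537). The median of the 9 was -0.63 at P2 and -0.40 at P10.

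Of 7 tested cation-chloride cotransporters, none passed at P2 or P4, 3 fell at P6 and 2 at P10, and none rose. Slc12a5 (KCC2), a potassium-chloride cotransporter, which carries salt out of the cell, had 46.4 and 68.7 normalised reads at P10, against 161 and 149 at P0 (log2 difference -1.44, adjusted p = 0.00929), and -1.47 at P6 (0.00785). The Slc12a5 calls were lost without P0 replicate 1 or 2 (highest adjusted p = 0.0880). The orphan transporter gene Slc12a9 fell at P6 (-1.38, adjusted p = 0.0437), a call that was lost without any 1 of the P0, P2 and P4 libraries or P6 replicate 2 (0.221). Slc12a7 was listed as 2 features, so its reads are uncertain. The list's median was -0.10 at P2 and -0.61 at P10.

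Of 11 tested genes of NFAT5 and solute handling, 1 fell at P2, 1 at P4, 4 fell and 1 rose at P6, and 1 fell at P10. The gene that fell at all 4 passages was Slc38a2, a sodium-coupled transporter of neutral amino acids that takes part in recovery from shrinkage, with log2 differences of -0.87, -1.11, -1.19 and -0.82 (adjusted p = 0.0354, 0.00832, 0.00417 and 0.0173). It had 3059 and 3083 normalised reads at P10, against 5629 and 5233 at P0. Its calls were lost without P0 replicate 1 in all 4 comparisons (highest adjusted p without any 1 library 0.266), and without P0 replicate 2 in all but P6. The P2 call was also lost without any 1 library of P2 or P4 and the P4 call without either P4 library. Slc6a6, the taurine transporter, passed at P6 (-0.93, adjusted p = 0.0350), and Akr1b1, aldose reductase, which makes sorbitol, rose at P6 (0.85, adjusted p = 0.0352). Both P6 calls were lost without any 1 of the P0, P2 and P4 libraries or P6 replicate 1, and that of Slc6a6 also without P6 replicate 2 (highest adjusted p = 0.202 and 0.185). The list's median was -0.22 at P2 and -0.60 at P10.

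**Figure D4:**
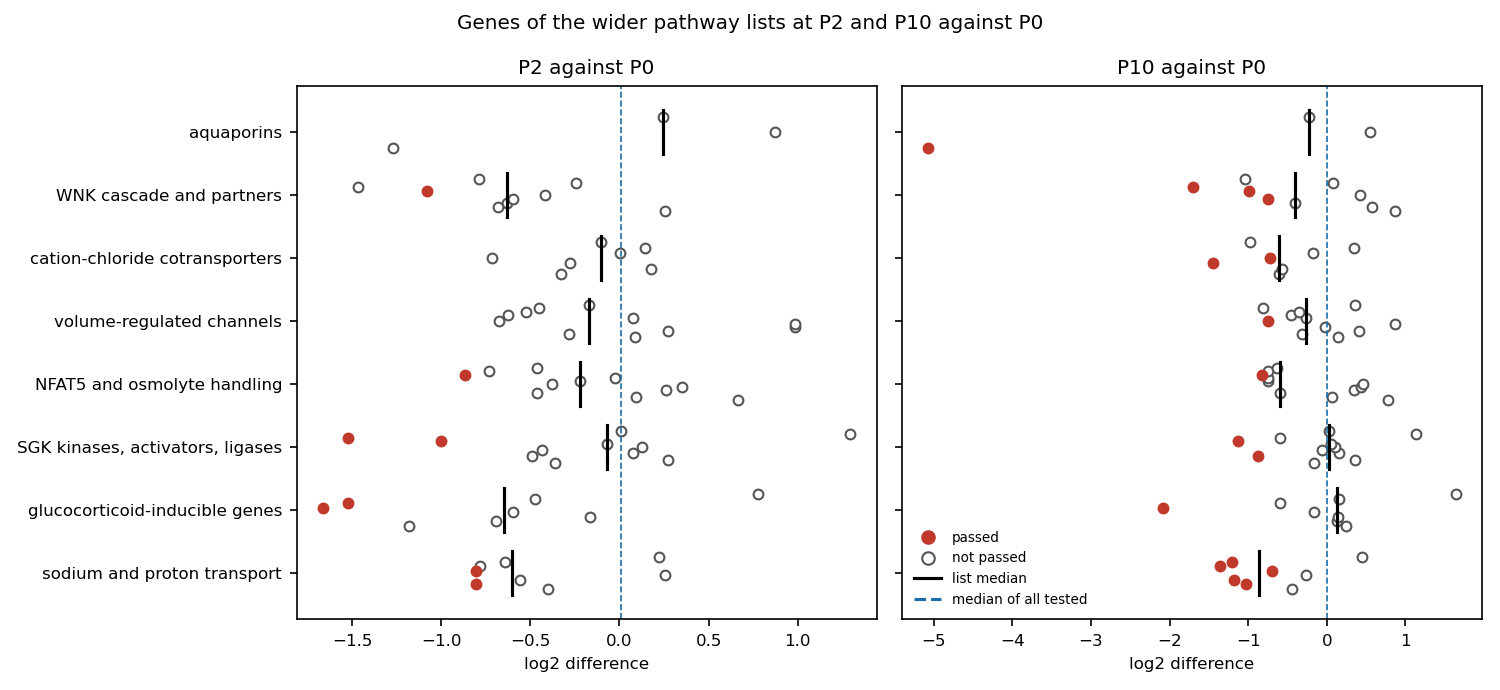
Log2 differences (horizontal axes) of the tested genes in each wider list at P2 and at P10 against P0; filled points passed in limma, black bars are list medians and the dashed line is the median of all tested features. Aqp1 at -5.07 is the leftmost point at P10, and list medians for sodium and proton transport lie at -0.60 at P2 and -0.86 at P10.

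Around SGK1, 11 of 12 listed genes were tested, and 2 fell at P2, 2 at P4, 3 at P6 and 2 at P10, while 1 rose at P6. Rictor, the defining subunit of the mTORC2 complex that activates SGK1, fell at all 4 passages, with log2 differences of -1.34 at P4, -0.91 at P6 and -1.13 at P10 (adjusted p = 0.00796, 0.0212 and 0.0107), and an adjusted p of 0.0393 at P2. It had 913 and 620.4 normalised reads at P10, against 1641 and 1651 at P0. The calls of Rictor were lost without P0 replicate 1 or 2 at every passage (highest adjusted p without any 1 library 0.279). They were also lost without either P2 or either P4 library at P2, without either P4 library at P4, and without P6 replicate 1 at P6. The mTOR kinase gene Mtor passed at P6 (-0.88, adjusted p = 0.0294) and P10 (-0.88, adjusted p = 0.0325), both lost without any 1 of the P0, P2 and P4 libraries (0.193 and 0.224), without either P6 library at P6 and without P10 replicate 1 at P10. The list's median was -0.07 at P2 and 0.02 at P10.

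Of 8 tested genes that glucocorticoids induce, 2 fell at P2, P4 and P6, and 1 at P10, and 1 rose at P6. Besides Sgk1, Per1, a clock gene with a mean under 50, fell at all 4 passages, to 19.4 and 24.2 normalised reads at P10, against 103 and 87.7 at P0 (-2.08, adjusted p = 0.00440). Its P6 and P10 calls were lost without P0 replicate 1. The P4 call of Per1 was lost without either P0 or either P4 library. Its P2 call was lost without any 1 of the P0, P2 and P4 libraries and with the replicate block (limma adjusted p = 0.0549). Tsc22d3, a standard glucocorticoid target, had 223 and 144 normalised reads at P10, against 153 and 169.6 at P0, and did not pass at any passage. The list's median was -0.65 at P2 and 0.13 at P10.

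Of 8 tested genes of sodium and proton transport, 2 fell at P2 and P4, 6 at P6 and 5 at P10, and none rose. The median log2 difference was -0.60 at P2 and -0.86 at P10. Atp1b3, a subunit of the sodium pump, had 662 and 724 normalised reads at P10, against 1592 and 1250.4 at P0 (-1.03, adjusted p = 0.00671, and 0.0778 without P0 replicate 1). Piezo1, a stretch-gated channel, had 270.02 and 474 at P10, against 966 and 688 at P0 (-1.19, adjusted p = 0.0206). The Piezo1 call at P10 was lost without P0 replicate 1 or 2 (highest adjusted p = 0.171). Slc4a7, a sodium-bicarbonate cotransporter, fell at all 4 passages (-0.69 at P10, adjusted p = 0.0259). Its calls were lost without P0 replicate 1 or 2 at every passage, at P2 and P10 also without either P2 or either P4 library, and at P4 without either P4 library. The highest adjusted p without 1 library was 0.319 at P2, 0.123 at P4, 0.0671 at P6 and 0.154 at P10.

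These list counts depended on P6 replicate 2 and P10 replicate 1. Without them, 17.5, 21.3, 24.5 and 20.2% of all features were called lower at P2, P4, P6 and P10, and 16.7, 21.8, 24.3 and 26% higher, so the counts below are to be read against those shares. Of the 9 WNK partners, 1 was called higher and 7 lower in P2, 1 and 6 in P4, 2 and 5 in P6 and 1 and 4 in P10. Of the 7 cotransporters, 1 fell in P2, 2 in P4, 6 in P6 and 4 in P10, and 1 rose in P4. Of the 11 channel genes, 3 were called higher and 4 lower in P2, 2 and 2 in P4, 2 and 1 in P6 and 1 and 2 in P10. Of the 11 NFAT5 and solute genes, 2 were called higher and 3 lower in P2, 2 and 5 in P4, 2 and 6 in P6 and 2 and 2 in P10. Of the 11 genes around SGK1, 1 was called higher and 5 lower in P2 and P4, and 1 and 3 in P6 and P10. Of the 8 glucocorticoid targets, 6 fell in P2, 3 in P4 and P6 and 2 in P10, and none rose. Of the 8 sodium and proton transport genes, 5 fell in P2 and P4 and 6 in P6 and P10, and 1 rose in P6.

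Markers of other cell types were looked at because Aqp1 is abundant in red blood cells and endothelium. Of 11 endothelial and erythroid markers, 9 matched, and their summed level was 1091 and 1689 normalised reads at P10, against 2863 and 1978 at P0. Nearly all of it was Eng (1012 to 2702 over the 10 libraries). The endothelial genes Cdh5, Kdr and Tie1 reached at most 3.37, 5.62 and 8.99, and the erythroid Alas2 and Epor at most 4.49 and 13.4. Pecam1 ranged from 16.9 to 42.5 and Tek from 14.0 to 69.7. The erythroid factor gene Klf1 ranged from 15.7 to 148 and fell at P6 (log2 difference from P0 -2.60, limma adjusted p = 0.0327). The 9 leukocyte markers summed to 103 to 110 at P2, 182 to 211 at P4, 153 to 216 at P6 and 106 to 169 at P10, against 50.5 to 63.2 at P0. Among them Itgax rose at all 4 passages (log2 differences 4.59, 5.60, 3.76 and 4.04) and Cd68 at P4 and P6 (1.34 and 1.53). Ptprc ranged from 9.58 to 29.2 and Csf1r from 1.74 to 13.5, and Laptm5 and Cd74 reached 43.8 and 8.99. Cd14, Tyrobp and Aif1 were at 1.04 or less. Mesenchymal markers summed to 19718 to 25406 at P10, against 19481 to 23993 at P0, mostly Vim. Within that list Fn1 (1287 to 7604 over the libraries) fell at P6 and P10 (-1.29 and -2.28), as did Pdgfra (-1.16 and -1.20). Pdgfrb rose at P4 (1.11), and Col1a1, at a low level of 3.48 to 54.8, rose at P2 and P4 (2.93 and 1.93). Thy1 had no read in any library, Col1a2 reached at most 3.37, and Cdh2 ranged from 9.32 to 48.1. Of the epithelial markers, Krt8 and Krt18 reached at most 4.95 and 1.12 although the line is called epithelial-like, and Cdh1 ranged from 50.6 to 337. The part of these markers in the differences of the 8 genes was not tested.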

How the data were processed

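The data are 1 deposited table of 25156 features in 10 libraries. Its values are a signal per feature: the authors deposited read counts normalised with DESeq (named without a version in the submitters' processing notes). Per the labels' protocols, RNA was extracted with TRIzol, depleted of ribosomal RNA and made into stranded libraries. Aligner, counting rule and genome build: not given in the sources used here.

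Dividing a column by its smallest value above 0 gave whole numbers, within 0.01 reads, for all of its values, so whole reads were recovered for the count-based alternatives. For P4 replicate 1 that step lies near 1, and its reads rest on the same reading. Of 20050 features named by gene number, 16386 matched a symbol in a RefSeq gene table (CriGri-PICRH-1.0), used for names only. In that table no other gene overlaps any of the 8 members.

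Tests used limma 3.58.1 in R 4.3.3 with a pseudocount of 1 and a trended prior, and 5 residual degrees of freedom. edgeR 4.0.16 and DESeq2 1.42.0 on recovered reads were alternatives, with other pseudocounts, filters and scalings, libraries left out and a replicate block. The steps were tested on simulated data. Genes of the wider lists were named if they passed, had a mean of at least 50 and were among the 4 smallest p-values of a list and comparison with P0. Wnk4, Per1, Slc12a7, marker genes and examples that did not pass were named after their values were seen. The 5 features most like Aqp1 were taken by Pearson r. P10 against P2 and P4, and list counts without P6 replicate 2 and P10 replicate 1, were added after the data were seen. The members and lists were chosen with earlier results of these data known. Some list genes that enter the counts are not reported here by name. No sequence is shown.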

Additional observations from a re-analysis of the deposited data

How the results depend on the processing

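Each member and comparison was refitted under 22 alternatives (21 for the slope), and of 1752 such results 1601 kept their side of the threshold, 65 lost the call, 86 gained one and none reversed as a call. The causes were not tested. At P2, 2 members were called, but 1 without a filter on low values, with upper-quartile scaling, in edgeR, without the intensity trend and with the replicate block, and 6 with the spread of the compared passages alone. That spread gave 8 at P4 (3 as reported), 0 at P10 (4), 3 for P4 against P2 (0), and 0 for P10 against P2 and P4 (1 each), in fits that called 3940 of 13521 features at P2, 5677 at P4, 49 at P10, 569 for P4 against P2, and 0 for P10 against P2 and P4. Without P6 replicate 2 and P10 replicate 1 the members called were 6, 7, 7 and 7 at P2, P4, P6 and P10, 2, 3 and 3 in the successive steps, 5 and 4 for P10 against P2 and P4, and 4 for the slope. That fit called 4616, 5829, 6595 and 6256 features at the 4 passages, 220, 3712 and 3610 in the steps, 2968 and 1799 for P10 against P2 and P4, and 1413 for the slope. DESeq2 called 1 member for P6 against P4 and 3 each for P10 against P2 and P4, where it called 512, 832 and 650 features. Upper-quartile scaling called 2 members for P10 against P2, where 182 features were called. The replicate block called 0 members in both comparisons of P10 with P2 and P4, where 48 and 7 features were called. Whether replicate numbers pair the libraries is not stated in the labels. Correlations of replicate deviations between passages ran from -0.67 (P6 with P10) to 0.23 (P2 with P10). They cannot settle the pairing, because the libraries that stood apart at P6 and P10 carry different replicate numbers. The block ended 4 member calls. These were Stk39 at P2 (limma adjusted p = 0.0881), Lrrc8a at P10 (0.0604) and Aqp1 for P10 against P2 (0.0674) and P4 (0.0951). Among the list calls it ended were Rictor, Slc38a2, Slc4a7 and Per1 at P2 (0.0792, 0.0730, 0.0733 and 0.0549) and Mtor at P10 (0.0505). Others were Slc12a9, Pacc1, Slc6a6 and Akr1b1 at P6 (0.0746, 0.0527, 0.0591 and 0.0593). Leaving out 1 library gave 0 to 5 members at P2, 1 to 4 at P4, 0 to 5 at P6 and 1 to 6 at P10, 0 to 0, 0 to 2 and 0 to 1 in the steps, 0 to 3 each for P10 against P2 and P4, and 0 to 1 for the slope.

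Counts of all features called moved more widely, from 561 to between 61 and 4616 at P2, from 1250 to between 143 and 5829 at P4, from 2841 to between 412 and 6595 at P6, and from 2301 to between 49 and 6256 at P10. In the steps, where limma called 0, they reached 569, 3712 and 3610. For P10 against P2 and P4 they ran from 0 to 3500 and 0 to 4094 (170 and 30 as reported), and for the slope from 111 to 4027 (1423). Upper-quartile scaling moved the median of all features by -0.10 for P10 against P6 and by -0.11 for P10 against P4, and by less in the other comparisons and with TMM. The fewest reads of a member in any 1 library were the 10 of Aqp1 in P10 replicate 1. Over all libraries Slc12a2 had 1913 reads, Lrrc8a 2949 and Aqp1 2960.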
